A study of Mus musculus with 22 samples.

Results

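RING1B peaks that carried neither PCGF6 nor the histone mark H2AK119ub1 made up 604 of the 4403 RING1B peaks (13.7%) found in wild-type (WT) crypts of the Villin line. They were chosen by absence. A RING1B peak was a member when it shared no base with any PCGF6 peak of WT AhCre crypts and no base with any H2AK119ub1 peak of WT Villin crypts. Of the remaining RING1B peaks, 1943 overlapped PCGF6 only, 1054 overlapped H2AK119ub1 only and 802 overlapped both. PCGF6 was profiled in crypts of the AhCre line and not in those of the Villin line in the lists used here, so the choice of members crosses the Cre lines, and a member may differ in PCGF6 between them.

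The study profiled small intestinal crypts of C57BL/6 mice, WT or with a knockout of Pcgf6 (KO), by chromatin immunoprecipitation and sequencing (ChIP-seq). The 14 crypt lists came from 2 lines named after Cre drivers. AhCre was induced with BNF and recombines under an inducible promoter, and Villin was induced with tamoxifen and recombines in the intestinal epithelium. The series' text describes males of 8 to 12 weeks collected 7 days after induction, in a sentence on RNA isolation, and gives no such detail for the chromatin. RING1B and H2AK119ub1 were profiled in WT and KO of both lines, PCGF6 in WT and KO of AhCre, and CTCF and RAD21 in WT and KO of Villin. The other 2 lists held PCGF6 and RING1B of WT E14 embryonic stem cells (ESC), an established mouse line. The labels do not say which alleles or inducer the WT animals carried, or whether animals were pooled. Each group had 1 library, so no difference has a replicate check and no test was made. Crypts hold several epithelial cell types, and occupancy in a few cells cannot be told apart from weak occupancy in all of them. None of the lists measures RNA, so the make-up of the crypts was not checked against markers.

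RING1B is the E3 ligase of Polycomb repressive complex 1 (PRC1) and places a single ubiquitin on histone H2A, the mark H2AK119ub1. Each PRC1 complex holds a PCGF protein, and PCGF6 defines the variant complex PRC1.6, which holds the DNA-binding proteins MGA, MAX and E2F6. Other PRC1 complexes reach chromatin through other PCGF subunits, through KDM2B at unmethylated CpG islands or through CBX proteins at H3K27me3. CTCF and RAD21, a cohesin subunit, anchor chromatin loops. In intestinal crypts PRC1 is known for holding developmental and non-intestinal regulators silent.

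As a set, promoters at the members were rich in CpG, whether or not RING1B was lost in the KO. The 6 promoters below have their start inside a member and were chosen by score, not by CpG. They are from RefSeq (GRCm38.p6, the mm10 assembly), each with the 250 bases before the start, written 5′ to 3′ on the gene's strand. CpG dinucleotides are in capitals. The first 3 promoters belong to members with the highest scores among those that kept a RING1B peak in both KO lists. Isl1 lies at chr13:116309689-116309938 on the minus strand with 33 CpG, H2bu2 at chr11:58948661-58948910 on the plus strand with 8 CpG, and Scin at chr12:40134229-40134478 on the minus strand with 9 CpG.
Isl1: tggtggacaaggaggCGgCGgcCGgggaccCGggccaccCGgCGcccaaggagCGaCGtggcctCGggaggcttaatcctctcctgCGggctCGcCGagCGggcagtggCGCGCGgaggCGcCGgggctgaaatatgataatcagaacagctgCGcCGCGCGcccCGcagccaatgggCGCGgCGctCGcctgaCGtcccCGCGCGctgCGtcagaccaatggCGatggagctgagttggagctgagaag
H2bu2: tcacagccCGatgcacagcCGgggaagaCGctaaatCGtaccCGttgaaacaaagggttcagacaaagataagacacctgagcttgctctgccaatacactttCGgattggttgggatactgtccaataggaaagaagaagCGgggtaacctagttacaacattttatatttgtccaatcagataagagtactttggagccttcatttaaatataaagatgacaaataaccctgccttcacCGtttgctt
Scin: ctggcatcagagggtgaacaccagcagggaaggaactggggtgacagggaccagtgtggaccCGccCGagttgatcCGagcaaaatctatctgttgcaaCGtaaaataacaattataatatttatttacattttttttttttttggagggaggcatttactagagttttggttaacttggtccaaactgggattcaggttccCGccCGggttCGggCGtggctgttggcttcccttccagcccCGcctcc
The next 3 belong to members that had a RING1B peak in the WT lists of both lines and in neither KO list. Zbtb8b lies at chr4:129440819-129441068 with 10 CpG, Fbxo44 at chr4:148160095-148160344 with 17 CpG and Tlr2 at chr3:83841609-83841858 with 11 CpG, all on the minus strand.
Zbtb8b: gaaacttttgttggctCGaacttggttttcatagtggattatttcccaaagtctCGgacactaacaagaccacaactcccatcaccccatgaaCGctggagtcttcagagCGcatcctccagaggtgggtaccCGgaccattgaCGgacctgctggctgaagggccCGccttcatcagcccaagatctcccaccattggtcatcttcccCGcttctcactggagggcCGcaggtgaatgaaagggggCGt
Fbxo44: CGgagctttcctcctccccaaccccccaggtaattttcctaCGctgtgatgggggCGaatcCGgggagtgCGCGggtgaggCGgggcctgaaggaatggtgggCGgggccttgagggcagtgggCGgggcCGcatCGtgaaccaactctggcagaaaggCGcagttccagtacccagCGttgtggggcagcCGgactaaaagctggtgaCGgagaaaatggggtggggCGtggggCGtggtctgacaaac
Tlr2: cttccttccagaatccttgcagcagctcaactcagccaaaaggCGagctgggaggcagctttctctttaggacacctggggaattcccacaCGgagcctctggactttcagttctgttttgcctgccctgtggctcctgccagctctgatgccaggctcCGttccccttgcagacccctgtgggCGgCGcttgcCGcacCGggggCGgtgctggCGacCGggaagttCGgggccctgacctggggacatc
The 2 groups of 3 overlapped in CpG number, and Isl1 alone stood above 20 CpG.

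Over all members, 301 promoters of 268 genes lay within 1 kb. Their median was 23 CpG per 300 bases (250 before and 50 after the start), with quartiles of 17 and 32. All 21263 promoters of the table had a median of 13 (quartiles 4 and 24), and the promoters at any Villin WT RING1B peak a median of 24. Promoters with fewer than 10 CpG were 9.3% of those at members and 43.2% of all. The median GC content was 65.7% at members and 56.3% over all promoters. Promoters at members lost in Villin KO had a median of 24 CpG, and those at members that kept RING1B 23. Members thus lay near RING1B promoters as a whole in CpG content, and lost and kept members had nearly the same median.

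Letters of known motifs were counted on both strands of the same 300 bases. The palindrome CACGTG, the E-box that MGA and MAX bind, was in 8.31% of the promoters at members, 15.4% of those at peaks with PCGF6 only, 12.4% of those at any RING1B peak and 7.84% of all promoters. At members the share was thus near that of all promoters. It was 12.9% (15 of 116) at members that kept RING1B in Villin KO and 5.79% (11 of 190) at those that lost it. GGCGGGA, a core that E2F proteins bind, was in 29.2% at members, 24.8% at peaks with PCGF6 only and 14.9% of all promoters. GGGCGG, the GC box of Sp and Klf factors, was in 76.4%, 75.1% and 46.2% in the same order, and its letters can overlap those of the E2F core. AGGTGTGA, a part of the T-box site, was in 0 of the 301 promoters at members, 0.905% at any RING1B peak and 1.15% of all. It is thus rare everywhere. The shorter T-box core TCACACC was in 2.66% at members, 3.55% at any RING1B peak and 3.68% of all. CCGGAAGT, an ETS site, was in 3.99% at members, 4.32% at any RING1B peak and 5.15% of all. AAGATGGC, a YY1 site, was in 0.997%, 2.40% and 3.05% in that order. TATAAA was in 4.65% at members, 6.54% at any RING1B peak and 12.6% of all. The letters AGATAA, which factors of the GATA family bind, were in 5.32% at members, 4.80% at any RING1B peak and 9.65% of all. At members with RING1B in ESC they were in 14 of 130 promoters (10.8%), and at those without in 2 of 171 (1.17%). The splits of members given for CACGTG and AGATAA are taken from many that were counted, without a test. Others differed too, such as CCGGAAGT, in 1.54% with RING1B in ESC and 5.85% without. The same splits were not counted over all RING1B peaks, so whether any is a trait of these members was not tested. A match describes letters, not binding.

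The score of a peak is the −log10 p or q value that the authors' peak caller gave it, and every deposited peak has a score of 10 or more. Members had a median score of 13.6, with quartiles of 11.4 and 18.2, against a median of 14.7 over all 4403 peaks. Peaks with PCGF6 only had a median score of 13.4, those with H2AK119ub1 only 18.2 and those with both 19.5. The median width was 750 bp at members (quartiles 489 and 1120 bp), 667 bp with PCGF6 only, 1359 bp with H2AK119ub1 only and 1236 bp with both. Members were thus near the peaks with PCGF6 only in score and width. Of the members, 126 (20.9%) had a score of 20 or more, 22 had 50 or more and 45 (7.45%) were at least 2 kb wide, against 33.6% of the peaks with H2AK119ub1 only that were so wide.

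Some members stood close to the edge of the choice. The 3 nearest to a PCGF6 peak lay 2, 25 and 44 bp away, with RING1B scores of 11.4, 10.5 and 10.2, and the 3 RING1B peaks left out by the smallest overlap shared 3, 19 and 38 bp with PCGF6, at scores of 11.4, 15.9 and 30.1. For H2AK119ub1, a member at Nfatc2, which encodes a calcium-regulated transcription factor, directly abutted a marked peak, and the next lay 6 and 7 bp away, with scores of 14.7, 11.2 and 10.4. Peaks just outside shared 3, 8 and 12 bp with the mark, at scores of 17.1, 16.7 and 12.5. The median distance from a member to the nearest H2AK119ub1 peak of Villin WT was 98.5 kb, with quartiles of 3.47 and 483 kb. To the nearest PCGF6 peak it was 41.5 kb. Within 1 kb lay 93 members for H2AK119ub1 and 56 for PCGF6, and beyond 100 kb lay 302 and 169.

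The lists differed in length, which bears on every share given here. The WT and KO lists held 4403 and 2464 RING1B peaks in Villin, 2368 and 1662 in AhCre. PCGF6 in AhCre, which checks the labels, had 17163 peaks in WT and 4779 in KO. H2AK119ub1 had 13175 and 16039 peaks in AhCre and 6219 and 5492 in Villin. Read counts and depth are not in the lists, so a peak missing from a list may have lain just under its floor.

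RING1B at the members was found again in AhCre WT crypts at 268 of 604 (44.4%, 95% interval 40.4 to 48.4, exact Clopper-Pearson, which covers counting error only). Over all Villin WT RING1B peaks the share was 46.6%. It was 26.0% for peaks with PCGF6 only, 68.6% with H2AK119ub1 only and 69.3% with both. Over all scores the members thus lay between the class with PCGF6 only and the classes with H2AK119ub1, and the intervals did not overlap. The share followed the score: over 5 score bins of equal size, cut on the Villin WT list and given from weakest to strongest, it was 23.8%, 25.8%, 45.9%, 70.9% and 82.4% at members, against 16.2%, 24.4%, 36.9%, 63.5% and 92.1% over all peaks. For peaks with H2AK119ub1 only it was 28.5%, 38.5%, 50.6%, 78.8% and 98.7%, and the intervals of members and of this class overlapped in all bins except the strongest. In the strongest bin, 61 of 74 members had an AhCre WT peak and 13 did not.

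**Figure D1:**
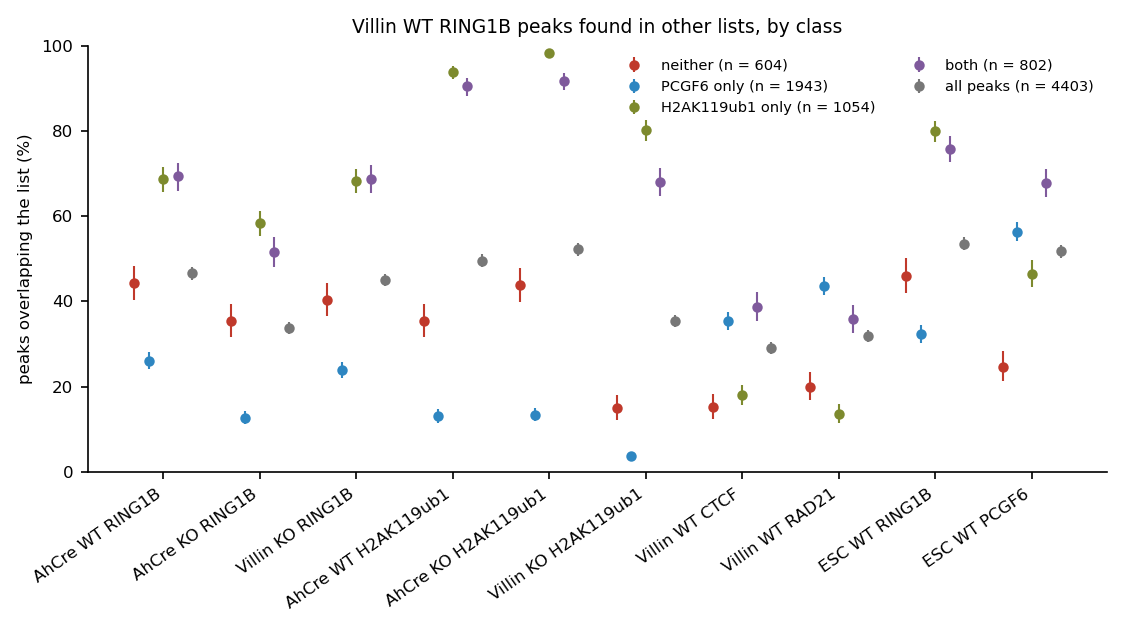
Share of Villin WT RING1B peaks (vertical axis, %) that overlap each of 10 other peak lists (horizontal axis), for members (neither, red), the 3 other classes and all peaks. Bars are exact 95% intervals for counting error only. Members lie between PCGF6 only and H2AK119ub1 only for the first 6 lists, from 44.4% for AhCre WT RING1B to 14.9% for Villin KO H2AK119ub1.

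In Villin KO crypts 360 of the 604 members (59.6%, 55.6 to 63.5) had no RING1B peak and 244 kept one. Over all Villin WT peaks 55.1% had none. The share was 76.1% for peaks with PCGF6 only, 31.7% with H2AK119ub1 only and 31.3% with both. At equal score the members were near all peaks. From the weakest bin to the strongest, 86.2%, 75.8%, 58.5%, 35% and 9.46% of members were lost, against 85.7%, 76.8%, 64.5%, 36.9% and 11.4% of all peaks. Peaks with PCGF6 only were lost at 90.8%, 83.8%, 75.7%, 58.5% and 43.9%, so the difference from members was widest among strong peaks. When the WT list was shortened to its strongest peaks, as many as the KO list holds, 101 of 278 members (36.3%) were lost, against 34.9% of all peaks so kept. This choice also leaves out weak peaks, which were lost most often, so list length and score cannot be told apart.

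**Figure D2:**
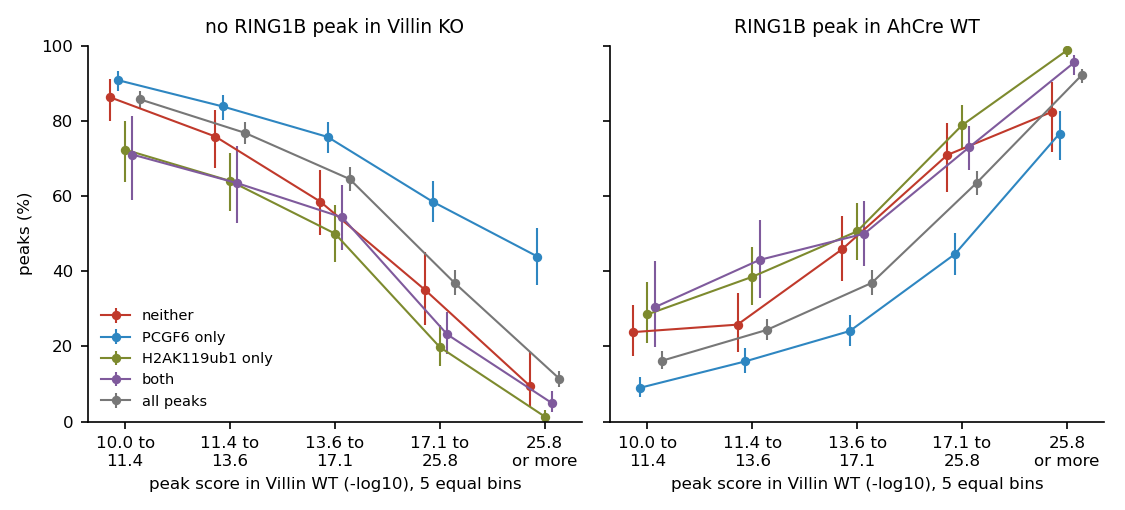
Left: share of Villin WT RING1B peaks with no RING1B peak in Villin KO (vertical axis, %). Right: share with a RING1B peak in AhCre WT. Both are shown by 5 bins of the score in Villin WT (−log10), with exact 95% intervals. Loss at members (neither, red) goes from 86.2% in the weakest bin to 9.46% in the strongest and lies below that of peaks with PCGF6 only in each bin.

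Of the 268 members with an AhCre WT peak, 89 (33.2%, 27.6 to 39.2) had no RING1B peak in AhCre KO, against 34.7% of all such peaks. By score in Villin WT the share was 73.7%, 50%, 37.1%, 24.7% and 4.92% at members, and 66.4%, 60.9%, 53.5%, 38.6% and 11.8% over all such peaks. Loss at members thus lay below that of all such peaks in every bin except the weakest, on 34 to 73 members a bin. The intervals overlapped in every bin. For peaks with H2AK119ub1 only the share was 51.4%, 48.4%, 37.4%, 28.7% and 3.01%, so outside the weakest bin members were near this class. Among the 268, 51 (19%) were lost in both lines, against 17.4% of all. In Villin KO alone 42 were lost and in AhCre KO alone 38. The remaining 137 (51.1%) kept RING1B in both KO lists, against 56.6% of all. Of these 268, 93 (34.7%) were lost in Villin KO, against 26.2% of all peaks with an AhCre WT peak, and of the 336 members without one, 267 (79.5%, against 80.3%) were.

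Taking the 4 crypt RING1B lists together, 136 members (22.5%, against 26.1% of all) were in every list and 246 (40.7%, against 40.9%) were in no list but their own. A further 41 of the 336 members without an AhCre WT peak had one in AhCre KO (12.2%, against 7.49% of all), so absence from the AhCre WT list did not always mean absence from that line. Members that kept RING1B in Villin KO had a median score of 17.7 and a median width of 995 bp. Lost members had 12.0 and 619 bp.

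Shares also differed by width among the members. Of 166 members under 500 bp wide, 78.3% were lost in Villin KO, 26.5% had an AhCre WT RING1B peak and 31.9% had RING1B in ESC. Of the 45 members of 2 kb or more, 17.8% were lost, 86.7% had an AhCre WT peak and 75.6% had RING1B in ESC. The widest members also had the highest share with H2AK119ub1 in AhCre WT, 60.0% against 24.7% of the narrowest. Score moves with width, with medians of 11.4 in the narrowest and 27.1 in the widest. A wider peak also has more room to overlap another, and their parts were not separated. Shares by width were not counted over all RING1B peaks, so whether this order is particular to members was not tested.

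The 22 members with a score of 50 or more fell into 11 under 1 kb wide and 11 of 1 kb or wider. All 11 wide ones had RING1B in AhCre WT and in both KO lists, 10 had RING1B in ESC and 10 had H2AK119ub1 in AhCre KO. Among the 11 narrow ones, 5 had an AhCre WT RING1B peak, 2 had RING1B in ESC and none had H2AK119ub1 in any list. Only 1 narrow one, at Cd74, was absent from Villin KO. Of all 881 RING1B peaks in the strongest score bin, 92.1% had an AhCre WT peak and 78.7% had RING1B in ESC. In Villin KO 11.4% of them were lost. The wide members were thus near strong RING1B peaks as a whole in these lists. That bin starts at a score of 25.8, and shares at 50 or more were not counted over all peaks. The 2 strongest members of all were narrow. A peak of 398 bp at chr3:5860378-5860775, 282 kb from the nearest gene Pex2, scored 356.1 in Villin WT, 282.4 in Villin KO and 346.6 in AhCre KO and was not in the AhCre WT list. A peak of 366 bp at chr9:123461815-123462180, within the body of Lars2, which encodes the mitochondrial leucyl-tRNA synthetase, scored 293.6 in Villin WT and 281.6 in Villin KO and was in neither AhCre list. Neither of these peaks overlapped H2AK119ub1, CTCF, RAD21 or an ESC peak in any list. Peaks were filtered here by chromosome only, with no removal of regions prone to artefact signal. Whether such narrow peaks of high score are artefacts was not tested.

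**Figure D3:**
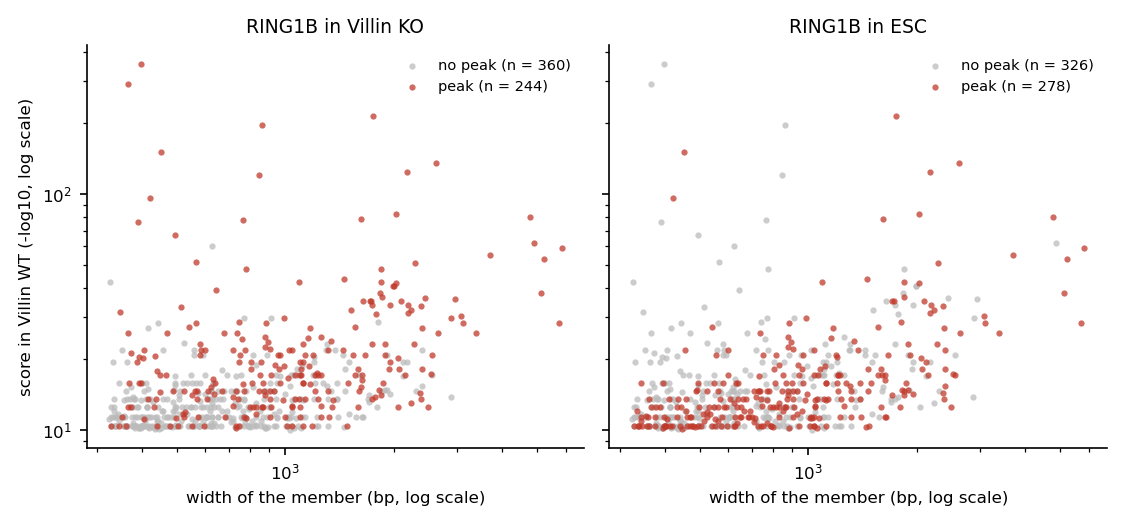
Each point is 1 of the 604 members, by width (bp, log scale) and score in Villin WT (−log10, log scale). Red points have a RING1B peak in Villin KO (left, 244 members) or in ESC (right, 278 members), and grey points have none. Wide members are mostly red in both panels. The narrow members of high score on the left of each panel are mostly red in Villin KO and mostly grey in ESC.

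H2AK119ub1 was absent from the members in Villin WT by choice, so a share below that of all peaks in other lists of this mark is no finding. In AhCre WT crypts 214 members (35.4%, 31.6 to 39.4) overlapped an H2AK119ub1 peak, against 49.5% of all RING1B peaks. In AhCre KO the number was 265 (43.9%, against 52.2%) and in Villin KO 90 (14.9%, against 35.3%). Of the 604 members, 305 (50.5%, against 56.1%) had the mark in at least 1 of these 3 lists and 68 (11.3%, against 33.5%) in all 3. The other 299 (49.5%) were marked in none of the 4 lists. The AhCre lists of this mark are more than 2 times as long as those of Villin. The most frequent pattern among marked members was AhCre WT and KO without Villin KO, at 111.

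The share with the mark in AhCre WT followed the distance to the nearest marked region of Villin WT. It was 62.4% of the 93 members within 1 kb, 47.3% of 91 at 1 to 10 kb, 40.7% of 118 at 10 to 100 kb and 21.5% of 302 beyond 100 kb. In Villin KO it was 29.0%, 18.7%, 11.9% and 10.6% in the same order. Loss of RING1B in Villin KO did not follow this distance, at 58.1%, 65.9%, 61.9% and 57.3%. RING1B in ESC was found at 57.0%, 53.8%, 38.1% and 43.4%. Median scores were 13.6, 14.1, 13.6 and 13.6, so the bins had nearly the same score. Distance to PCGF6 gave no such order for loss in Villin KO, with 57.1%, 66.1%, 60.3% and 55.0% over the same bins. In AhCre KO the loss was 34.6% of 26, 45.5% of 55, 33.1% of 124 and 22.2% of 63.

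**Figure D4:**
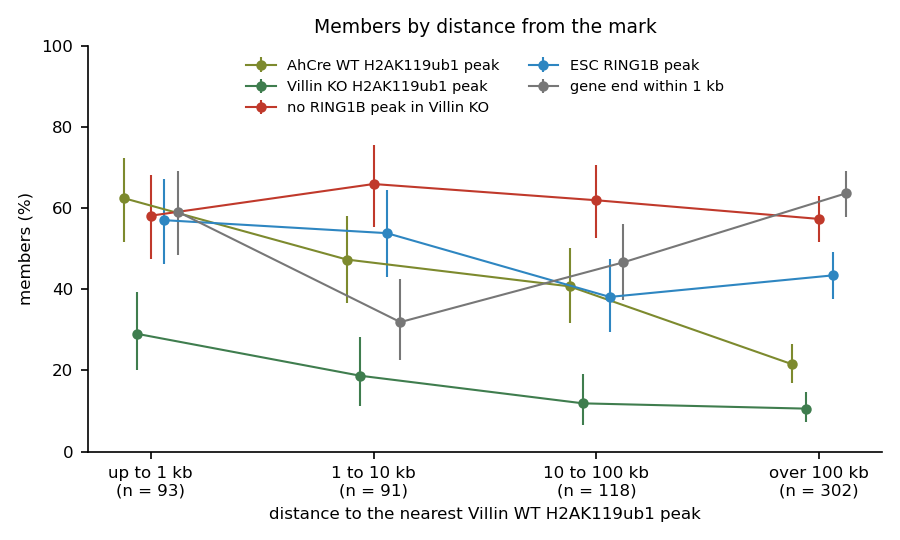
Share of members (vertical axis, %) with each feature, by distance to the nearest H2AK119ub1 peak of Villin WT (horizontal axis, 4 bins with n). Bars are exact 95% intervals for counting error only. H2AK119ub1 in AhCre WT goes from 62.4% in the nearest bin to 21.5% in the farthest, while loss of RING1B in Villin KO lies between 57.3% and 65.9%.

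The 299 members marked in no H2AK119ub1 list had RAD21 at 27.4% and CTCF at 17.7%, against 12.8% and 12.8% of the 305 marked elsewhere. They had RING1B in ESC at 34.4% against 57.4%, and an AhCre WT RING1B peak at 35.8% against 52.8%. Their loss in Villin KO was 64.5%, against 54.8%. Median widths were 625 and 886 bp and median scores 12.5 and 14.6, so the unmarked members were also narrower and weaker. This split was not counted over all RING1B peaks, so whether these differences are particular to members was not tested.

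CTCF, in Villin WT, overlapped 92 members (15.2%, 12.5 to 18.3), against 29.1% of all RING1B peaks. RAD21 overlapped 121 (20%, 16.9 to 23.5), against 31.8%. For peaks with PCGF6 only these shares were 35.4% and 43.6%, and for those with H2AK119ub1 only 18% and 13.7%. CTCF at members thus lay near the class with H2AK119ub1 only, and RAD21 between both classes. The 2 proteins were together at 67 members (11.1%, against 20.3%), CTCF stood alone at 25 (4.14%, against 8.77%), RAD21 alone at 54 (8.94%, against 11.5%), and 458 (75.8%, against 59.5%) had neither. At equal score CTCF at members lay between 10.6% and 19.4% in the 5 bins, under the 25.9% to 33.1% of all peaks.

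In Villin KO, 78 of the 92 members with CTCF in WT kept a CTCF peak and 14 (15.2%) did not. Over all RING1B peaks 20.1% did not. RAD21 was missing in KO at 53 of 121 (43.8%, against 44.5%). Only 3 members had CTCF in KO without WT, and 3 had RAD21 so. RAD21 was kept at 49 of the 67 members with both proteins (73.1%, against 70.7% of all such RING1B peaks) and at 19 of the 54 with RAD21 alone (35.2%, against 28.5%). RING1B was lost in Villin KO at 61.2% of members with both, 61.1% of those with RAD21 alone, 60.5% of those with neither and 9 of the 25 (36.0%, 95% interval 18 to 57.5) with CTCF alone. Loss of RING1B at members was thus alike in 3 of these 4 groups, and the group with CTCF alone was small. Loss of RING1B in these groups was not counted over all RING1B peaks.

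The members with both proteins and the highest scores at a gene end were at C1galt1, Setbp1, Rasl11a, Has2 and Hs1bp3. C1galt1, the core 1 O-glycan synthase of mucins, had a member of 495 bp at chr6:7844303-7844797 with RING1B scores of 66.8 in Villin WT and 36.2 in KO and no AhCre peak, beside CTCF at 60.9 in WT and 73.0 in KO and RAD21 at 18.6 in WT only. At Has2, a hyaluronan synthase, CTCF scored 116.8 in WT and 139.2 in KO, and RING1B scored 18.2 and 12.5 in Villin, 34.8 and 10.3 in AhCre. At Hs1bp3 CTCF scored 354.8 and 289.8 beside RING1B at 17.8 and 11.1 in Villin, with none in AhCre. At Rasl11a, a Ras-like GTPase, RING1B scored 21.8 in Villin WT and was in no other crypt list. At Setbp1, which encodes a SET-binding protein, CTCF scored 71.4 and 94.1 and RING1B 42.3 and 29.1 in Villin, 18.2 and 23.2 in AhCre. CTCF was thus present in both genotypes at these 5, while RING1B was in both Villin lists at 4 of them.

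ESC had a RING1B peak at 278 members (46.0%, 42.0 to 50.1), against 53.5% of all RING1B peaks, 32.3% of those with PCGF6 only and 80.0% of those with H2AK119ub1 only. PCGF6 in ESC overlapped 149 members (24.7%, 21.3 to 28.3), against 51.7% of all and 56.3% of peaks with PCGF6 only. The members lacked crypt PCGF6 by choice, so this low share of ESC PCGF6 is a description. In ESC 125 members had both proteins (20.7%, against 35.6%), 153 had RING1B without PCGF6 (25.3%, against 17.9%) and 24 had PCGF6 without RING1B (3.97%, against 16.1%). Thus 125 of the 278 members held by RING1B in ESC carried PCGF6 there and not in crypts of AhCre. Their loss in Villin KO was 45.6%, against 58.8% of the 153 with ESC RING1B alone and 65.3% of the 326 without ESC RING1B. Median scores in Villin WT were 13.6 in each of these 3 groups, and median widths were 886, 870 and 623 bp, so the group without ESC RING1B was also the narrowest. Loss by ESC occupancy was not counted over all RING1B peaks, so whether this order is particular to members was not tested. In the strongest bin 51.4% of members had ESC RING1B, against 78.7% of all peaks, while in the weakest the shares were 41.2% and 37.9%.

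A smaller share of members than of all RING1B peaks lay at genes. A protein-coding gene end (the transcript start where the reference gives it, otherwise either end) lay within 1 kb of 331 members (54.8%, 50.7 to 58.8), against 69.7% of all. Within 5 kb the number was 406 (67.2%, against 79.2%). For transcript starts alone the number was 264 (43.7%, against 55.1%). Gene ends within 1 kb were at 62.0% of peaks with H2AK119ub1 only and 76.9% with PCGF6 only. Transcript starts were at 45.3% and 64.3% in the same order. For transcript starts members were thus near the class with H2AK119ub1 only, so the low share is not particular to them. A gene body was overlapped by 418 (69.2%, against 80.1%), and 149 (24.7%, against 14.7%) had neither end nor body. The 331 members lay at 336 of the 21887 protein-coding genes (1.54%), and 3137 genes (14.3%) had any Villin WT RING1B peak. Members at gene ends and elsewhere had RING1B lost in Villin KO at 57.7% and 61.9%, and ESC PCGF6 at 32.0% and 15.8%. This last split was not counted over all RING1B peaks.

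The chromosome X held 19 members among 54 RING1B peaks (35.2%), and chromosome 13 held 53 among 247 (21.5%), against 13.7% over all chromosomes. The lowest share on a chromosome with any RING1B peak was 8.36% on chromosome 7, with 24 of 287. Members on X included 3 around Esx1, a homeobox gene of the placenta and testis, chosen after its values were seen. The 2 widest of them had scores of 79.8 and 28.4 in Villin WT, 39.1 and 19.7 in Villin KO, 93.8 and 39.3 in AhCre WT, and 66.6 and 26.2 in AhCre KO, so both were in all 4 lists. Both also had H2AK119ub1 in AhCre WT, at 13.9 and 13, and in Villin KO, at 11.4 and 10.3.

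The members at gene ends with the highest scores mostly kept RING1B in every crypt list. Lats2, a kinase of the Hippo pathway, had a member of 1618 bp at chr14:57744017-57745634 with RING1B scores of 78.2 in Villin WT, 57.6 in Villin KO, 99.5 in AhCre WT and 75.7 in AhCre KO. Isl1, a LIM homeobox factor of enteroendocrine cells, had a member of 5838 bp at chr13:116306796-116312633 with 58.9, 31.9, 31.4 and 45.9 in the same order. Its promoter, printed above, is the one with the most CpG of the 6. Nrn1, which encodes the neuronal surface protein neuritin, had 52.8, 64.1, 73.1 and 49.4. Scin, an actin-severing protein of the gelsolin family, had 51.2, 33.3, 37.0 and 50.6. H2bu2, a histone H2B gene, had 55.1, 30.4, 38.0 and 31.3. All 5 had a RING1B peak in each crypt list. The member at Lats2 lay 183 bp from a PCGF6 peak of AhCre WT and had PCGF6 in ESC at 28.1. PCGF6 in ESC was also at Isl1, at 12.9, and at H2bu2, at 11.1. All 5 had H2AK119ub1 in AhCre KO, at 19.6 for Lats2, 10.6 for Isl1, 17.9 for Nrn1, 12.2 for Scin and 15.3 for H2bu2. They were thus unmarked in Villin WT and not in every list. The WT score was not always the higher: Nrn1 scored higher in Villin KO, and Isl1 and Scin scored higher in AhCre KO.

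Other strong members differed more between lists. The member at Tcf24, a basic helix-loop-helix factor, and Ppp1r42, a phosphatase subunit, had 43.8 in Villin WT, 31.9 in Villin KO, 53.7 in AhCre WT and 25.2 in AhCre KO. Zfp800, a zinc finger gene, had 42.0, 14.5, 45.0 and 25.2. Gm34298, whose member also touches Alx1, a homeobox gene, had 123.5, 44.3, 51.0 and 107.6. Impact, an imprinted gene that regulates the kinase GCN2, had 77.3, 50.1, 24.7 and 26.3. At Cd74, the invariant chain of MHC class II, RING1B scored 60.5 in Villin WT and 24.2 in AhCre KO and was in neither of the other 2 lists. Irx1, an Iroquois homeobox gene, had 42.3 in Villin WT, 13.6 in Villin KO and 33.5 in AhCre KO, with none in AhCre WT. A peak was thus absent from the AhCre WT list and present in the AhCre KO list at the last 2 genes.

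**Figure D5:**
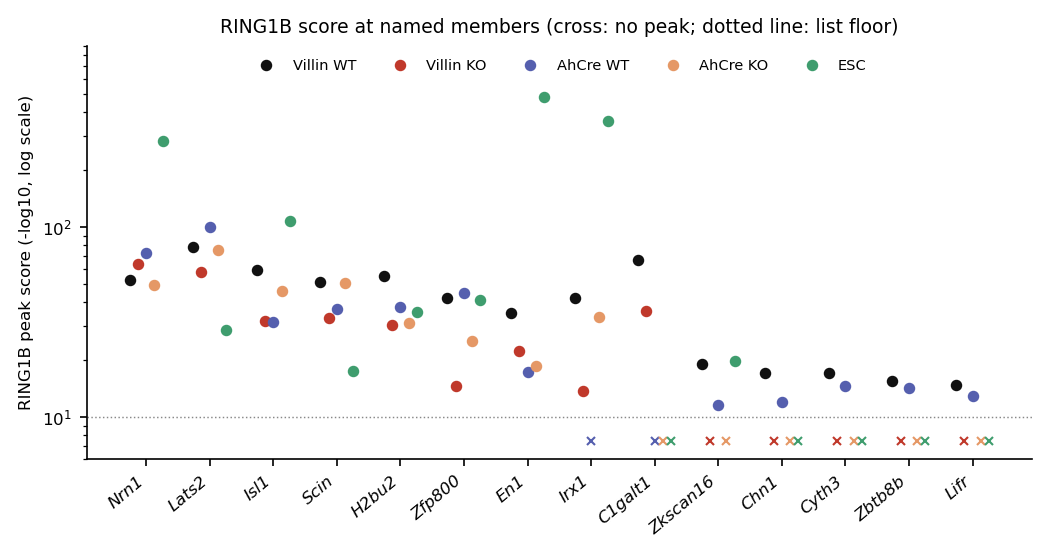
RING1B peak scores (−log10, log scale) at 14 members named in the text, in the 4 crypt lists and in ESC. A cross under the dotted line at a score of 10, the floor of the lists, stands for no peak. The first 7 genes have a peak in all 5 lists, and the last 5 have one in both WT lists and in neither KO list.

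Of the 139 members at gene ends that had an AhCre WT peak, 27 (19.4%, against 18.7% of all such RING1B peaks at gene ends) were lost in both KO lists and 71 (51.1%, against 55.0%) kept RING1B in both. These shares were near those of all peaks. The 10 highest of the 27 were weak. Zkscan16, a zinc finger gene, scored 18.9 in Villin WT and 11.5 in AhCre WT. Chn1, a GTPase-activating protein for Rac, scored 17.1 and 11.9. Cyth3, an exchange factor for ARF proteins, scored 17.1 and 14.5. Zbtb8b, a BTB zinc finger gene, scored 15.4 and 14.2, and Lifr, the receptor of leukemia inhibitory factor, 14.7 and 12.8. Fbxo2 and Fbxo44, F-box genes that share a member, scored 14.7 and 11.1, with CTCF at 19.5 in WT and 20.6 in KO. The other 4 members, at Fkbp1b and Wdcp, Pou6f1, Igsf9b and Dmxl2, each scored 13.6 in Villin WT and between 11.0 and 13.1 in AhCre WT. All these scores lie within 10 units of the floor of the lists.

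Developmental regulators, the longest list, had 9 of 89 genes at a member and 71 of 89 at any RING1B peak. Of those 71, 12.7% were thus at a member, against 10.7% of all genes at any RING1B peak. En1, a homeobox gene of the midbrain, had a member of 1731 bp with RING1B scores of 35.2 in Villin WT, 22.3 in Villin KO, 17.2 in AhCre WT and 18.5 in AhCre KO, and 482.4 in ESC. Sox3, a neural SoxB1 gene, had 23.2, 14.8, 27.2 and 24.2, and 125.9 in ESC. Nkx6-2, a homeobox gene of neural tissue, had 34.0, 17.2, 22.0 and 29.2, and 190.7 in ESC. These 3 were in all 5 RING1B lists. Foxa2, a forkhead factor of endoderm, scored 10.4 in Villin WT and 10.3 in AhCre WT, was in neither KO list and scored 446.2 in ESC. Sox1, Nkx2-2 and Barhl1, all neural regulators, had no RING1B peak in Villin KO or AhCre WT, at Villin WT scores of 15.9, 15.9, and 21.9 and 15.8 for the 2 members of Barhl1. In AhCre KO RING1B was found at Nkx2-2, at 10.8, and at the first of the Barhl1 members, at 20.4. Hox genes, the clustered homeobox genes of the body axis, had 0 of 39 at a member and 35 of 39 at any RING1B peak.

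Many of these members lay beside marked regions rather than far from them. The distance to the nearest H2AK119ub1 peak of Villin WT was 214 bp at Foxa2, 384 bp at Sox1, 651 bp at Nkx6-2 and 896 bp at En1. At Irx1 it was 246154 bp and at Sox3 7832352 bp, so 2 of the 9 genes had a member far from the mark. Pou3f3, a POU factor that is not on the list, had a member at 640 bp with scores of 36.6 in Villin WT, 11.4 in Villin KO, 33.6 in AhCre WT, 19.4 in AhCre KO and 568.5 in ESC, and was chosen after its values were seen.

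Among 24 identity factors of enterocytes, 4 were at a member (Cdx2, Klf5, Maf and Prdm1) of 10 at any RING1B peak. Of all genes at any RING1B peak, 10.7% were at a member. These 4 of 10 were the highest such share among the gene lists. It rests on 10 genes and was picked from many lists, without a test. Cdx2, the homeobox factor that sets intestinal fate, had a weak member of 10.3 in Villin WT that was in no other crypt list and lay within an ESC peak of 477.3. Klf5, a factor of proliferating crypt cells, had 10.4 and was in no other crypt RING1B list, beside RAD21 at 25 in WT. Maf, a bZIP factor of mature enterocytes, had 12.5 in Villin WT and 14.8 in Villin KO, and another RING1B peak of its own that shared 3 bp with PCGF6 and so was no member. Prdm1 (BLIMP1), which represses the adult program in the young intestine, had 17.3 in Villin WT, 17.7 in Villin KO, 20.9 in AhCre WT and 11.5 in AhCre KO, beside CTCF at 141.6 and RAD21 at 91.2 in WT. Only Prdm1 of the 4 was in all 4 crypt lists.

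Over all genes 1.54% were at a member, and 10.7% of those at any RING1B peak. Of list genes at any RING1B peak, 9.09% were at a member for stem cell markers and 28.6% for enteroendocrine markers. The share was 8.33% for the Wnt list, 6.67% for BMP and TGF-beta and 5.0% for immediate early genes. Sox9, a factor of stem and Paneth cells, was the 1 of 23 stem cell markers at a member, of 11 at any RING1B peak. Its 2 members scored 14.1 and 13.8 in Villin WT and 12.4 each in Villin KO, and the first overlapped CTCF at 193.7 in WT and 204.3 in KO. In ESC both lay in a RING1B peak of 593.4. Among 22 enteroendocrine markers Isl1, described above, and Tac1 were at a member, of 7 at any RING1B peak. Tac1, the precursor of substance P, had 13.4 in Villin WT and 12.2 in Villin KO, with none in AhCre. Tcf7l1, a repressor of Wnt targets, was the 1 of 38 Wnt pathway genes, of which 12 were at any RING1B peak. It had 17.1 and 14.8 in Villin, 16.3 and 10.8 in AhCre, beside CTCF at 160.5. Inhba, a TGF-beta family ligand, was the 1 of 33 BMP and TGF-beta genes, of which 15 were at any RING1B peak. It had 14.7 in Villin WT alone beside CTCF at 125.5. Klf6, an immediate early factor, was the 1 of 33 immediate early and stress genes, of which 20 were at any RING1B peak. It had 17.1 in Villin WT alone beside CTCF at 60.9 and RAD21 at 66.3. Markers of Paneth, goblet and tuft cells, enterocyte transporters, junction genes, Notch genes, PRC2, ribosomal proteins, E2F targets, germline genes, immune cells and mesenchyme had 0 genes at a member, and of these the Notch list had 10 of 25 at any RING1B peak. In the other lists so named, 0.0% to 22.2% of the genes were at any RING1B peak. With 1.54% of all genes at a member, a 0 in such short lists is no finding.

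PRC1 genes had 2 of 40 at a member and 21 of 40 at any RING1B peak. Of those 21, 9.52% were at a member, against 10.7% of all genes at any RING1B peak. Phc1, a subunit of canonical PRC1, had 17.1 in Villin WT, 17.2 in AhCre WT and 14.1 in AhCre KO, with none in Villin KO, 766 bp from a PCGF6 peak. Fbrsl1, a relative of the variant PRC1 subunit FBRS, had 14.7 in Villin WT alone, with PCGF6 at 13.8 and no RING1B peak in ESC. Outside the list, chosen after their values were seen, Macroh2a2, a histone variant gene, had 13.4 and was in no other crypt RING1B list, and Sfmbt2, a Polycomb factor, had 20.7 in Villin WT alone and 158.0 in ESC.

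A few further genes, known to be imprinted, were chosen after their values were seen, with no count over all imprinted genes. Zdbf2 had 6 members in or at the gene, with scores from 13.6 to 37.9 in Villin WT. All 6 had an AhCre WT RING1B peak, 4 had one in AhCre KO and 3 in Villin KO. The strongest of them, 5125 bp wide, had 37.9 in Villin WT, 17.0 in Villin KO, 34.5 in AhCre WT and 53.8 in AhCre KO. Plagl1, a zinc finger gene of fetal growth, had 23.2, 14.8, 10.7 and 19.4 in that order. Peg3, which shares a promoter with Usp29, had 10.4 and Zrsr1, which lies in an intron of Commd1, had 12.0, both in Villin WT alone. Near Rasgrf1, at 25.4 kb, a member of 2618 bp at chr9:89881539-89884156 had 135.8, 72.4, 195.4 and 148.3. The members at Plagl1 and near Rasgrf1 were thus in all 4 crypt lists.

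Of the 5 strongest members away from gene ends, 3 remain. A peak of 1751 bp at chr11:24075901-24077651, in the body of Bcl11a, a zinc finger repressor, had 214.2 in Villin WT, 131.4 in Villin KO, 156.8 in AhCre WT and 128.4 in AhCre KO, and 229.6 in ESC. It also had CTCF at 25.6 in WT and 20.6 in KO. A peak of 452 bp at chr11:109011649-109012100, 60.9 kb from Axin2, a Wnt target and inhibitor, had 151.0, 178.0, 31.0 and 136.0 in the same order and 26.4 in ESC. A peak of 862 bp at chr6:3200767-3201628, 171 kb from Samd9l, had 196.2, 189.5, 95.3 and 228.9 and none in ESC. All 3 were in each of the 4 crypt lists. The peaks near Axin2 and Samd9l were narrow too, and whether they are artefacts was not tested either.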

How the data were processed

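Peak lists of 16 ChIP-seq libraries were analysed, and 6 input samples have no list here. The deposited score of each peak is a −log10 p or q value from the authors' peak caller, and which of both is meant was not stated. MACS2 2.1.1 and the aligner Bowtie (1.1.2 and 1.2.2) are listed in the submitters' processing notes, with the genomes mm10, dm6 and hg38, and the role of each is not given there. The labels name WT input as the peak-calling reference. Peaks were called per library. Per the labels' protocols, crypts were fixed with formaldehyde, and chromatin for H2AK119ub1 held 5% Drosophila S2 chromatin, whose counts were not used here. Of the ESC samples, 1 description line exchanges the names PCGF6 and RING1B, and the titles and antibody tags were followed. Depth is unknown, since the lists give no reads.

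Peaks on chromosomes 1 to 19, X and Y were kept, with 1-based starts. Lists shared a peak when at least 1 bp overlapped. A member was lost in Villin KO when no KO RING1B peak overlapped it, and lost in AhCre KO when neither it nor its AhCre WT peak did. Shares have exact Clopper-Pearson 95% intervals and stand beside the same share over all Villin WT RING1B peaks, in place of a test. The 5 score bins were cut on all 4403 peaks. Genes were the 21887 protein-coding genes of RefSeq (GRCm38.p6), of which 17492 had transcript starts. The other 4395, including all 511 of chromosome 18, were placed by either gene end within 1 kb. Symbols of the gene lists were matched directly. Named genes were the 10 with the highest score at gene ends over all members, among members lost in both lines, kept in both KO lists and with an AhCre WT peak, the 5 highest with CTCF and RAD21 and with neither, the genes of 21 lists, and the 5 highest members at no gene end. Promoters printed belong to the 3 highest members kept in both KO lists, and the 3 highest lost in both lines, that hold a transcript start. The members nearest to the edge of the choice are also given. Other genes are said to be chosen after their values were seen. Of the developmental list, 1 gene at a member is not reported here. The members, gene lists and motifs were chosen with earlier results of these data known. Overlap counts were checked against bedtools 2.31.1 and on simulated data. Python 3.11.15, pandas 2.3.3, numpy 2.4.6, scipy 1.17.1 and matplotlib 3.10.9 were used. Alternatives changed the overlap, the distance and score limits, the gene window and the length of the WT list.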

Additional observations from a re-analysis of the deposited data

How the results depend on the processing

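Of 50 alternative shares, 32 stayed within the interval of the share in the report and 18 moved. Counting as neighbours only PCGF6 and H2AK119ub1 peaks of score 20 or more gave 1978 members in place of 604. With members of score 20 or more, AhCre WT RING1B was 79.4%, loss in Villin KO 17.5%, loss in AhCre KO 11.0% and AhCre WT H2AK119ub1 44.4%. Members at least 1 kb from both, 466 in number, had AhCre WT H2AK119ub1 at 30.5%. Members that also lacked AhCre WT H2AK119ub1 had AhCre WT RING1B at 38.5%, RAD21 at 24.9%, ESC RING1B at 37.9% and ESC PCGF6 at 21.0%. Where a shared peak had to cover at least 50% of the shorter one, CTCF was 12.4%, RAD21 16.6%, both 7.95% and AhCre WT H2AK119ub1 28.1%. Where peaks within 500 bp counted as shared, ESC PCGF6 was 29.3% and AhCre WT H2AK119ub1 42.4%. A gene window of 5 kb gave 67.2% at a gene end. With the WT list as long as the KO list, loss was 36.3% in Villin and 23.0% in AhCre. The shortened list leaves out weak peaks, so its length and the score cannot be told apart. The wider windows act by their construction, and the cause of the other moves was not tested. No paired analysis was possible because each group had 1 library, and leaving out a replicate was not possible either.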

Other observations

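The 4 genes given here are in none of the lists and were chosen after their values were seen. Fgf10, a mesenchymal growth factor, had 2 members of 15.9 and 14.7 in Villin WT, 12.5 each in Villin KO, 15.4 and 22.2 in AhCre WT and 14.1 and 15.6 in AhCre KO. Both were in all 4 crypt RING1B lists, and their nearest H2AK119ub1 peak lay 882255 and 880712 bp away. Vgll2, a cofactor of TEAD factors in muscle, had 28.7 in Villin WT, 10.8 in AhCre WT and 13.3 in AhCre KO, with no peak in Villin KO, and 194.6 in ESC. A weaker member at this gene had 11.4 in Villin WT and was in no other crypt RING1B list. Osr1, an odd-skipped factor of mesoderm, had 2 members of 15.9 and 11.4 in Villin WT, of which the second scored 10.8 in AhCre KO, and both lay in an ESC peak of 319.9. Sall1, a zinc finger gene of kidney development, had 20.7 in Villin WT, 19.1 in Villin KO, 20.7 in AhCre WT and 15.8 in AhCre KO.

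Members with a PCGF6 peak in AhCre KO numbered 3 of 604 (0.497%), against 28.4% of all RING1B peaks, where the choice had already removed peaks with PCGF6 in AhCre WT.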
